A study of Mus musculus with 9 samples.

Results

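The mitochondrially encoded transcripts are the RNAs of the small circular chromosome that mitochondria carry themselves. They were taken as every symbol beginning with mt- in the count tables, which gave 37 of 55367 symbols: 2 rRNAs, 22 tRNAs and 13 protein-coding genes. They were measured in monocytes of adult mice kept for 4 h with control buffer, with adult platelets or with P7 platelets and then washed, with 3 libraries per group and 9 in all. P7 commonly denotes postnatal day 7. The labels name no genotype, strain, sex, platelet dose or number of donors for any group, and whether replicates were separate cultures or animals is not given, so p-values measure the spread between these libraries, which may be technical. RNA was selected with oligo-dT beads and read as 75 nt single ends from strand-marked libraries.

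Mitochondrial DNA is transcribed from both strands into long precursors, which are cut at the tRNAs that stand between the other genes. The heavy-strand precursor yields both rRNAs, most tRNAs and all messenger RNAs but one. The light-strand precursor yields mt-Nd6 and the remaining tRNAs. The rRNAs build the small and large subunits of the mitochondrial ribosome, the tRNAs decode its messages, and the coding genes specify subunits of respiratory complexes I, III and IV and of ATP synthase. Mature mitochondrial mRNAs mostly carry a short poly(A) tail, whereas the rRNAs carry at most a few added adenines. Platelets lack a nucleus but hold mitochondria with their own transcripts.

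Total counts per library ranged from 29687341 to 37065564. Levels below are CPM, a gene's counts scaled by the library total, as single values or as mean ± SD (n = 3). Fold changes come from edgeR's quasi-likelihood test on counts scaled with TMM factors, which put the median of all 13707 genes tested near 0 in each comparison (-0.0022, -0.014 and -0.024 on the log2 scale). Without those factors the medians were -0.066 for adult platelets against control, -0.29 for P7 platelets against control and -0.24 for P7 against adult platelets, so P7 fold changes on the library-total scale are lower by about that much for every gene. Genes with an adjusted p (Benjamini-Hochberg) under 0.05 are said to be called. Monocyte markers were present throughout, with 8 genes summing to 2.43 to 2.68% of control counts, 2.61 to 3.05% with adult platelets and 2.39 to 2.91% with P7 platelets. The 13 platelet markers summed to 0.000750 to 0.00151%, 0.0604 to 0.104% and 0.109 to 0.126%, and 5 erythroid markers to 0.000881 to 0.00117%, 0.0481 to 0.180% and 4.36 to 5.50%. Of the platelet markers 3 or 4 were at 0 in each control library and none was at 0 in any library with platelets. The libraries also fall into 2 sets across the groups by Igkc, a gene for an antibody light chain that B and plasma cells make. It stood at 410 to 772 CPM in replicate 1 of control, replicates 1 and 3 with adult platelets and replicate 1 with P7 platelets, called the high-Igkc libraries below, and at 123 to 172 CPM in the other 5. The 7 B and plasma cell markers together ranged from 0.0253 to 0.115% of counts. The 8 neutrophil markers held 0.0177 to 0.0476% and 8 T and NK cell markers 0.000108 to 0.000390%.

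The classes differed from one another across the groups. The summed rRNA level was 1309, 1560 and 1574 CPM in control replicates 1 to 3, 10014, 8533 and 10272 CPM with adult platelets, and 12154, 9624 and 9165 CPM with P7 platelets. Every library with platelets thus lay far above every control library, and the adult and P7 libraries overlapped. The means were 1481 ± 149, 9606 ± 939 and 10314 ± 1610 CPM, that is 6.49 times the control mean with adult platelets, 6.96 times with P7 platelets, and 1.07 times between P7 and adult platelets. Summed coding transcripts stood at 10414, 14651 and 14471 CPM in control, 10439, 14293 and 10780 CPM with adult platelets, and 12002, 14357 and 14142 CPM with P7 platelets. All 3 groups overlapped in this class, with P7 at 1.02 times and adult platelets at 0.898 times the control mean. Summed tRNAs, with 97 to 161 counts per library, stood at 3.66, 4.42 and 4.34 CPM in control, 3.13, 3.58 and 3.99 CPM with adult platelets, and 4.65, 5.05 and 4.22 CPM with P7 platelets. The tRNA sums of P7 and adult platelet libraries did not overlap, and control overlapped with both.

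**Figure D1:**
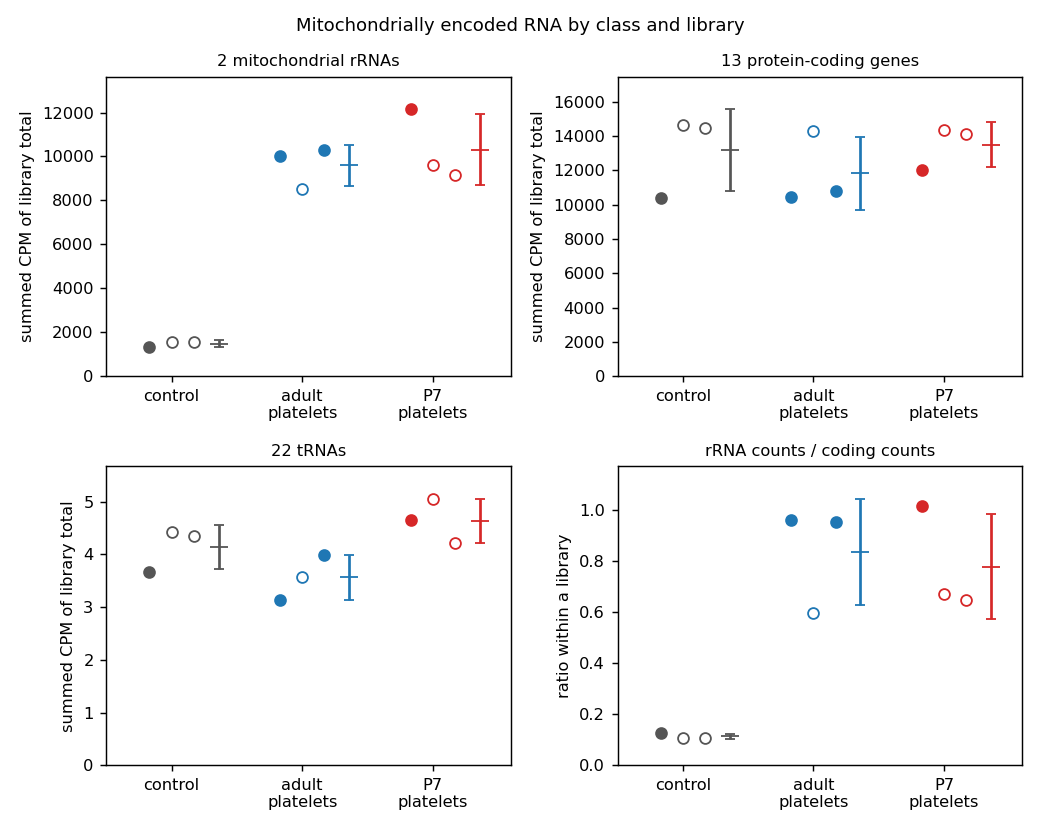
Summed CPM of the 2 rRNAs, 13 coding genes and 22 tRNAs, and the ratio of rRNA to coding counts, in each of 9 libraries (points, filled for the 4 high-Igkc libraries), with the mean and SD per group (n = 3). The rRNA sum is 1309 to 1574 CPM in control and 8533 CPM or more with platelets, whereas the coding sum separates filled from open points inside every group.

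All mitochondrially encoded counts together made up 1.17 to 1.62% of control libraries, 2.05 to 2.28% with adult platelets and 2.33 to 2.42% with P7 platelets. The rRNAs held 9.62 to 11.2% of those counts in control, 37.4 to 49.0% with adult platelets and 39.3 to 50.3% with P7 platelets. The ratio of rRNA to coding counts inside a library does not depend on scaling between libraries. It was 0.126, 0.106 and 0.109 in control, 0.959, 0.597 and 0.953 with adult platelets, and 1.01, 0.670 and 0.648 with P7 platelets. The ratio was higher in high-Igkc libraries in each group, and the groups with platelets still lay above control among the high-Igkc libraries (0.126 against 0.953 to 1.01) and among the others (0.106 and 0.109 against 0.597 to 0.670).

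Both rRNAs rose with both kinds of platelets. mt-Rnr1, the rRNA of the small ribosomal subunit (chrM:70-1024, plus strand, GRCm38), stood at 563, 669 and 671 CPM in control, 3666, 3127 and 3652 CPM with adult platelets, and 4177, 3380 and 3336 CPM with P7 platelets. No library with platelets came near the control range, and adult and P7 libraries overlapped. Its log2 fold change was 2.52 ± 0.11 (SE) with adult platelets (edgeR adjusted p = 2.28e-06) and 2.79 ± 0.11 with P7 platelets (edgeR adjusted p = 4.17e-07). mt-Rnr2, the large-subunit rRNA (chrM:1094-2675, plus strand), stood at 746, 891 and 903 CPM in control, 6349, 5406 and 6620 CPM with adult platelets, and 7977, 6244 and 5829 CPM with P7 platelets. Its log2 fold change was 2.92 ± 0.13 with adult platelets (edgeR adjusted p = 2.61e-06) and 3.25 ± 0.14 with P7 platelets (edgeR adjusted p = 4.60e-07). Neither rRNA was called between P7 and adult platelets, at 0.27 ± 0.11 for mt-Rnr1 (edgeR adjusted p = 0.0689) and 0.34 ± 0.13 for mt-Rnr2 (edgeR adjusted p = 0.0578). On library totals these differences were 0.061 and 0.13. With a term for the high-Igkc libraries mt-Rnr2 was called between P7 and adult platelets (0.37, edgeR adjusted p = 0.0405) and mt-Rnr1 was not (0.30, adjusted p = 0.0559). The DESeq2 Wald test called both there (adjusted p = 0.0293 for mt-Rnr1 and 0.0190 for mt-Rnr2). Leaving out control replicate 1 also brought both below the threshold (edgeR adjusted p = 0.0485 and 0.0469), as did leaving out P7 replicate 3 for mt-Rnr2 (0.0449). In the remaining settings, 18 of 20 for mt-Rnr1 and 16 of 20 for mt-Rnr2, they were not called.

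The calls of the rRNAs are 2 of 13 members tested in the comparison of adult platelets with control, where no other member was called. Of all genes tested, 26.4% were called in that comparison, 14.3% higher and 12.0% lower. The median log2 fold change was 2.72 over the 2 rRNAs and -0.050 over the 13 members tested. In every one of 20 other settings both rRNAs were called against control with either kind of platelets.

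The rRNAs did not rise in equal proportion. mt-Rnr2 counts were 1.32, 1.33 and 1.35 times mt-Rnr1 counts in control, 1.73, 1.73 and 1.81 times with adult platelets, and 1.91, 1.85 and 1.75 times with P7 platelets. The control ratios lay apart from all 6 others, and those of adult and P7 libraries overlapped. Per kb of gene, mt-Rnr1 averaged 664 CPM in control and was above mt-Rnr2 at 535 CPM. The order was the other way with platelets, at 3645 against 3872 CPM per kb for adult and 3802 against 4225 CPM per kb for P7 platelets. In control both rRNAs stood below every coding gene with over 10 counts except mt-Nd6. With platelets both stood above all coding genes per kb, of which mt-Co1 was highest at 2619 and 3136 CPM per kb. That order may depend on sequence that mt-Co1, unlike the rRNAs, shares with annotated nuclear copies, described below. Per 1000 unshared stretches of 75 bases, mt-Co1 stood at 4572 CPM with adult and 5476 CPM with P7 platelets. It was then above mt-Rnr1 (3952 and 4121.5 CPM) and mt-Rnr2 (4062 and 4432 CPM). This measure takes reads of shared stretches as not counted, which is not known.

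**Figure D2:**
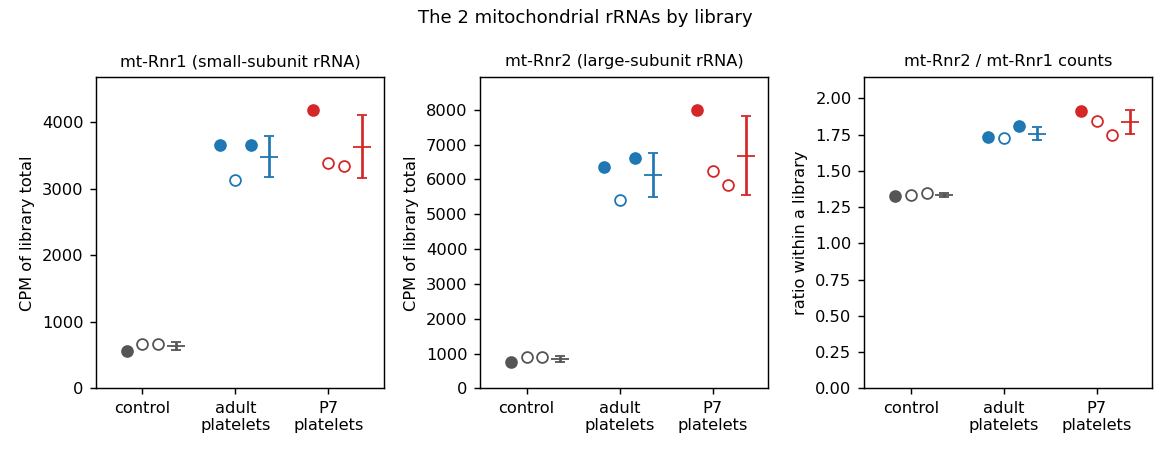
Level of mt-Rnr1 and mt-Rnr2 in CPM of the library total, and the ratio of their counts, in each of 9 libraries (points, filled for high-Igkc libraries) with mean and SD per group (n = 3). Control libraries lie apart from all 6 libraries with platelets in each panel, with ratios of 1.32 to 1.35 against 1.73 to 1.91.

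Because the RNA was captured on oligo-dT, the longest internal run of adenines in each rRNA is shown in capitals inside its surroundings, from GENCODE M21 transcripts on GRCm38. The stretch of mt-Rnr1 is chrM:683-731 and that of mt-Rnr2 is chrM:1466-1516, both on the plus strand.
mt-Rnr1: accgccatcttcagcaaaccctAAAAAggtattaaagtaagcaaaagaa
mt-Rnr2: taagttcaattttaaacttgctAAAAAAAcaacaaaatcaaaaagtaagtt
The runs are 5 and 7 bases long, and the longest runs of the 6 abundant coding genes are 5 to 8 bases. Adenine made up 37.8% of mt-Rnr1 and 38.2% of mt-Rnr2, against 29.5 to 36.9% of those coding genes. Whether reads of the rRNAs came from tailed molecules or from internal runs cannot be read from gene counts. Of 12 nuclear transcripts without a poly(A) tail in the tables, 1 had enough counts to be tested: Rn7sk, a regulator of transcription elongation, stood at 3.14 to 5.94 CPM in control, 1.94 to 2.56 CPM with adult and 1.81 to 2.05 CPM with P7 platelets. It fell with adult platelets by 0.97 ± 0.22 on the log2 scale (edgeR adjusted p = 0.0121) and with P7 platelets by 0.99 ± 0.22 (edgeR adjusted p = 0.00397). Rn7sk alone does not measure the capture of untailed RNA, which was not tested.

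Against control, the platelet and erythroid markers were higher with both kinds of platelets, as the rRNAs were. Between P7 and adult platelets 11 of 13 platelet markers were called higher and 1 lower (median log2 fold change 1.02). All 5 of 5 erythroid markers were called higher (median 5.87). On the same scale mt-Rnr1 had 0.27 and mt-Rnr2 0.34, and neither was called. In shares of the library total, neither marker list overlapped between these 2 groups, while the rRNA sums did. The mean platelet marker share was 0.0867% with adult and 0.115% with P7 platelets. Within the groups, platelet markers were 0.0958, 0.0604 and 0.104% of counts in adult platelet replicates 1 to 3, lowest in the library with the lowest rRNA sum, and 0.126, 0.109 and 0.110% in the P7 libraries, highest in the library with the highest rRNA sum. Those libraries, adult replicate 2 and P7 replicate 1, also differ from the rest of their group in Igkc class, so the match cannot be told apart from that class. P7 replicates 2 and 3 went the other way, with platelet markers at 1092 and 1099 CPM and rRNA sums of 9624 and 9165 CPM. The part of platelet or erythroid RNA in the rRNA levels was not tested. Fewer cells of a type and less RNA per cell cannot be told apart in such bulk libraries.

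Among coding genes the 6 abundant ones kept close to their control levels with adult platelets. mt-Nd1, a core membrane subunit of complex I (chrM:2751-3707), stood at 1745, 2201 and 2143 CPM in control, 1807, 2209 and 1727 CPM with adult platelets, and 1903, 2126 and 2060 CPM with P7 platelets. mt-Nd2, a further membrane subunit of complex I (chrM:3914-4951), stood at 906, 1181 and 1148 CPM, at 881, 1189 and 894 CPM, and at 1002, 1145 and 1089 CPM in the same order. mt-Co1, the catalytic subunit of complex IV (chrM:5328-6872) and the most abundant coding member, stood at 3615, 5238 and 5206 CPM, at 3529, 4909 and 3702 CPM, and at 4178, 5192 and 5168 CPM. In all 3 genes the groups overlapped, and the low values belonged to the high-Igkc libraries of each group. mt-Nd4, a proton-pumping subunit of complex I (chrM:10167-11544), stood at 786, 1104 and 1095 CPM, at 849, 1125 and 856 CPM, and at 974, 1124 and 1083 CPM. mt-Nd5, which forms the far end of the same membrane arm (chrM:11742-13565), stood at 1520, 2296 and 2249 CPM, at 1374, 2212 and 1579 CPM, and at 1613, 2149 and 2086 CPM. mt-Cytb, cytochrome b of complex III (chrM:14145-15288), stood at 1838, 2626 and 2625 CPM, at 1997, 2645 and 2020 CPM, and at 2327, 2612 and 2647 CPM. These 3 genes repeated the pattern, low in the high-Igkc libraries whatever the group.

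With adult platelets none of the 6 was called against control. Their log2 fold changes ran from -0.17 ± 0.22 for mt-Nd5 to -0.01 ± 0.16 for mt-Nd4, with edgeR adjusted p from 0.588 for mt-Co1 to 0.960 for mt-Nd4. With a term for the high-Igkc libraries, chosen after seeing the data, all 6 lay between 0.0089 for mt-Co1 and 0.12 for mt-Nd4 and again none was called. The sum of coding transcripts was 14651 and 14471 CPM in the other 2 control libraries and 14293 CPM in the remaining adult library. Among high-Igkc libraries it was 10414 CPM in control and 10439 and 10780 CPM with adult platelets.

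With P7 platelets the 6 genes were higher than control by values that did not pass the test without a replicate term. The log2 fold changes were 0.28 ± 0.12 for mt-Nd1 (edgeR adjusted p = 0.0838), 0.28 ± 0.15 for mt-Nd2 (0.134), 0.32 ± 0.18 for mt-Co1 (0.157), 0.37 ± 0.16 for mt-Nd4 (0.0762), 0.22 ± 0.22 for mt-Nd5 (0.410) and 0.37 ± 0.16 for mt-Cytb (0.0785). On library totals the same differences were between -0.053 for mt-Nd5 and 0.098 for mt-Cytb, so their size rests on the scaling. With the replicate number as a block, mt-Nd1, mt-Nd2, mt-Co1, mt-Nd4 and mt-Cytb were called higher (edgeR adjusted p = 0.0276, 0.0291, 0.0273, 0.0140 and 0.0184) and mt-Nd5 was not (0.0872). With the Igkc term all 6 were called, from 0.24 for mt-Nd5 (edgeR adjusted p = 0.0108) to 0.39 for mt-Cytb (0.00103). The sum of coding transcripts in CPM of the library total was 14357 and 14142 in the other 2 P7 libraries, slightly under the control libraries without high Igkc, and 12002 in the high-Igkc P7 library against 10414 in that of control.

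Between P7 and adult platelets the 6 genes also missed the threshold, with log2 fold changes from 0.30 ± 0.12 for mt-Nd1 (edgeR adjusted p = 0.0883) to 0.47 ± 0.18 for mt-Co1 (0.0676). On library totals they ranged from 0.085 for mt-Nd1 to 0.26 for mt-Co1. All 6 were called with the Igkc term, from 0.21 for mt-Nd1 (edgeR adjusted p = 0.0204) to 0.33 for mt-Co1 (0.00248). The adult group holds 2 high-Igkc libraries and the other groups 1 each.

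The composition of the coding class was broadly similar in all 9 libraries, with small differences between groups. mt-Co1 held 33.8 to 36.5% of coding counts over the 9 libraries, mt-Cytb 17.7 to 19.4%, mt-Nd1 14.6 to 17.3%, mt-Nd5 13.2 to 15.7%, mt-Nd2 7.70 to 8.70% and mt-Nd4 7.54 to 8.14%. The mt-Nd4 and mt-Cytb shares were higher in every library with platelets than in any control library. Their means were 7.55 and 17.9% in control, 7.98 and 18.8% with adult platelets, and 7.87 and 18.8% with P7 platelets. The mt-Co1 share was lower in every adult platelet library than in any other library (mean 34.2%, against 35.5% in control and 35.8% with P7 platelets). Per kb, the control means were 3033 CPM for mt-Co1, 2121 CPM for mt-Nd1, 2066 CPM for mt-Cytb, 1108 CPM for mt-Nd5, 1039 CPM for mt-Nd2 and 722 CPM for mt-Nd4. mt-Nd1 and mt-Cytb, and likewise mt-Nd5 and mt-Nd2, are neighbours in that order that lie close together.

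**Figure D3:**
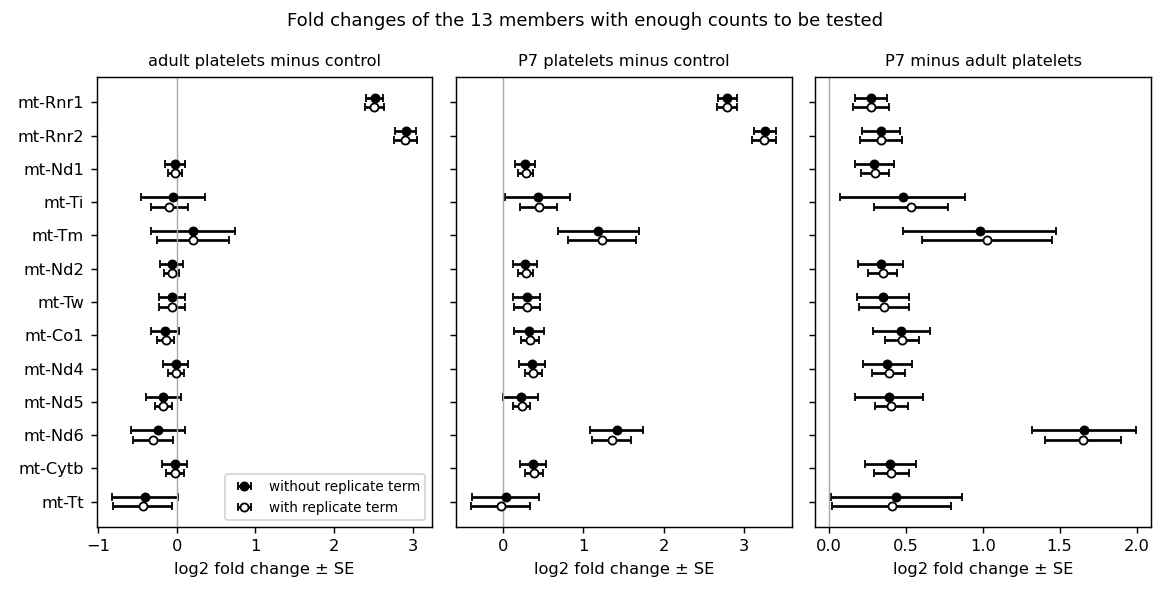
Log2 fold change ± SE of the 13 members with enough counts to be tested, for adult platelets against control, P7 platelets against control and P7 against adult platelets, from edgeR fits without (filled) and with (open) the replicate number as a term. mt-Rnr1 and mt-Rnr2 stand near 2.5 to 3.3 against control, mt-Nd6 at 1.42 and 1.66 in the P7 comparisons, and the other coding genes below 0.5.

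mt-Nd6, the complex I subunit encoded on the light strand (chrM:13552-14070, minus strand), rose with P7 platelets. It stood at 3.30, 3.43 and 3.16 CPM in control (120, 121 and 117 counts), 1.94, 3.87 and 2.15 CPM with adult platelets (60, 133 and 69 counts), and 4.11, 9.23 and 8.41 CPM with P7 platelets (136, 274 and 297 counts). Each P7 library lay above all other libraries, although P7 replicate 1, a high-Igkc library, was close to adult replicate 2. Its log2 fold change was 1.42 ± 0.33 against control (edgeR adjusted p = 0.00491), 1.66 ± 0.34 against adult platelets (edgeR adjusted p = 0.00423) and -0.24 ± 0.34 for adult platelets against control (edgeR adjusted p = 0.646). The 2 P7 calls held in all 20 other settings, with edgeR, voom or DESeq2 adjusted p of at most 0.0219 and 0.0194. Among libraries without high Igkc the levels were 3.43 and 3.16 CPM in control, 3.87 CPM with adult and 9.23 and 8.41 CPM with P7 platelets. Among high-Igkc libraries they were 3.30 CPM, 1.94 and 2.15 CPM, and 4.11 CPM.

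With mt-Nd6, members called against control with P7 platelets came to 3 of 13 tested, all higher, and between P7 and adult platelets mt-Nd6 was the single member called. Of all genes tested, 59.2% were called in P7 against control, 29.9% higher and 29.3% lower. Between P7 and adult platelets 39.6% were called, 19.7% higher and 19.8% lower. The 13 members had a median log2 fold change of 0.37 against control and 0.39 against adult platelets. With the replicate block the count against control was 9 of 13, adding mt-Tm, the methionine tRNA, and the 5 coding genes named above. It was 7 without adult platelet replicate 2. Over all genes, 8565 of 13707 tested were called against control with the block and 8338 of 13980 without that library. The single call between P7 and adult platelets became 7 without adult platelet replicate 2 and 6 without control replicate 1. It became 3 without P7 replicate 1 (mt-Tq among them, edgeR adjusted p = 0.00966), and 2 without control replicate 2 or P7 replicate 3. In the same order, the genes called numbered 5540 of 13980, 5293 of 13916, 5361 of 13995, 4937 of 13935 and 3978 of 13948.

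mt-Nd6 was scarce beside its heavy-strand neighbours. Its control mean of 6.35 CPM per kb compares with 1108 CPM per kb for mt-Nd5, which it faces on the opposite strand and overlaps by 14 bases. Per 1000 coding counts, mt-Nd6 held 0.317, 0.234 and 0.218 in control, 0.186, 0.271 and 0.200 with adult platelets, and 0.342, 0.643 and 0.594 with P7 platelets. The P7 libraries were thus highest within the coding class too, narrowly so for P7 replicate 1 against control replicate 1. The strand setting of the counting is not given in the sources used here, and without strand, reads of mt-Nd6 and of RNA from the opposite strand of the same stretch cannot be told apart.

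The 8 tRNAs of the light strand were then summed, a grouping chosen after their values were seen. They held 10, 3 and 3 counts in control, 4, 1 and 2 counts with adult platelets, and 5, 28 and 17 counts with P7 platelets. P7 replicates 2 and 3 were the highest, as for mt-Nd6, while P7 replicate 1 fell below control replicate 1. The largest number of these counts belonged to mt-Tq, the glutamine tRNA, 35 over the 9 libraries, with 14 and 11 counts in P7 replicates 2 and 3 and 0 to 4 elsewhere. It had too few counts to be tested in the fit of all 9 libraries, and without a filter mt-Tq was called in P7 against control (edgeR adjusted p = 0.0311) and against adult platelets (0.0238). mt-Tp, the proline tRNA, followed with 24 counts in all, 9 and 4 counts there and 0 to 6 elsewhere. The 14 heavy-strand tRNAs summed to 123, 153 and 158 counts, 93, 122 and 126 counts, and 149, 122 and 132 counts, with no such excess in P7 replicates 2 and 3.

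**Figure D4:**
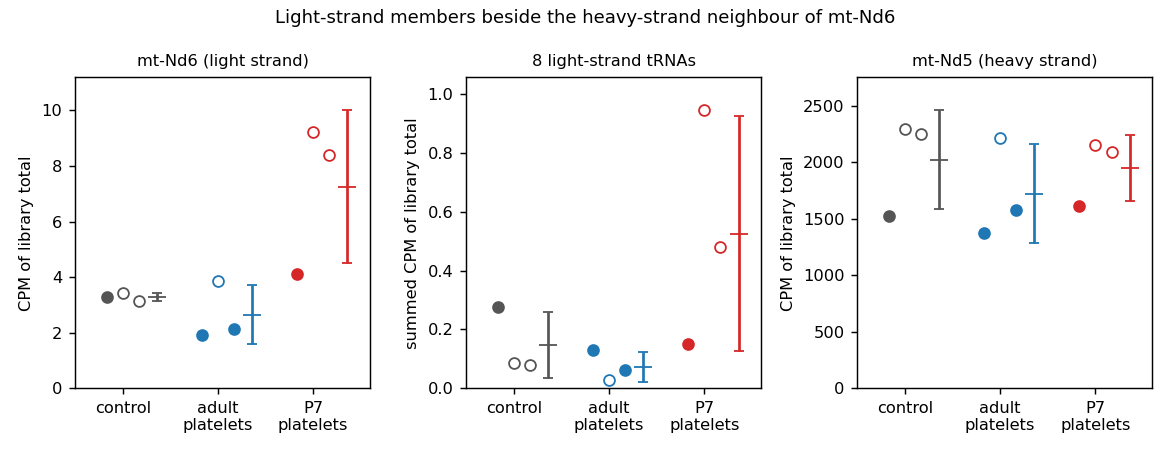
CPM of the library total of mt-Nd6, of the 8 light-strand tRNAs summed, and of mt-Nd5 in each of 9 libraries (points, filled for high-Igkc libraries) with mean and SD per group (n = 3). P7 replicates 2 and 3 are the highest for mt-Nd6 (9.23 and 8.41 CPM) and for the light-strand tRNAs, but not for mt-Nd5.

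The tRNAs were barely captured. They are 59 to 75 nt long, and 21 of 22 are shorter than one 75 nt read. Of the 22, 12 had 0 counts in every library, 10 had at least 1 count, and 4 (mt-Ti, mt-Tm, mt-Tw and mt-Tt) had enough to be tested. A count of 0 in 1 library allows up to 3 counts. mt-Tw, the tryptophan tRNA (chrM:4950-5016), was the most abundant at 1.51, 1.87 and 1.81 CPM in control, 1.49, 1.45 and 1.84 CPM with adult platelets, and 1.72, 1.75 and 1.78 CPM with P7 platelets. mt-Tt, the threonine tRNA (chrM:15289-15355), stood at 1.21, 1.10 and 1.27 CPM, at 0.839, 0.494 and 1.28 CPM, and at 1.72, 0.640 and 0.679 CPM. Both overlapped between all groups, and none of the 4 tRNAs was called in any comparison by the edgeR fit without further terms. The largest difference was that of mt-Tm in P7 against control, 1.19 ± 0.50 (edgeR adjusted p = 0.0652), which was called with the replicate block (1.24, adjusted p = 0.0329), with the Igkc term (1.24, 0.0187) and by limma-voom (1.42, 0.0408). It rests on 2 to 10 counts per control library and 11 to 13 per P7 library. Their median log2 fold changes were -0.054, 0.36 and 0.46 for adult against control, P7 against control and P7 against adult platelets. The detected tRNAs mostly adjoin abundant coding genes: mt-Ti, mt-Tm and mt-Tw stand between mt-Nd1 and mt-Co1, and mt-Tt follows mt-Cytb.

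Of the 13 coding genes, 6 had fewer than 11 counts in every library. mt-Atp8 and mt-Atp6, subunits of ATP synthase, mt-Co3, a core subunit of complex IV, and mt-Nd4l, a small subunit of complex I, had 0 counts in all 9 libraries. mt-Co2, the subunit of complex IV that accepts electrons from cytochrome c, had 1 count in adult platelet replicate 1 and 0 elsewhere. mt-Nd3, a small subunit of complex I, had 3 to 10 counts per library. These genes lie on the same strand between mt-Co1 and mt-Nd4, which both had far more counts in every library.

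These genes also differ from the others in the sequence they share with annotated transcripts of the nuclear genome, where copies of mitochondrial DNA have been inserted. Nuclear sequence outside annotated transcripts was not searched. Every stretch of 75 bases, the read length, in each member was looked up in the other transcripts of GENCODE M21. It was found in a nuclear pseudogene for 607 of 610 stretches of mt-Co2, 604 of 607 of mt-Atp6, 709 of 710 of mt-Co3, 268 of 274 of mt-Nd3 and 220 of 223 of mt-Nd4l. mt-Nd4 shared 802 of 1304 stretches, mt-Co1 586 of 1471, mt-Nd2 55 of 964 and mt-Nd5 29 of 1750. mt-Rnr1, mt-Rnr2, mt-Nd1, mt-Nd6 and mt-Cytb shared none. The genes whose stretches were nearly all shared are those with 0 to 10 counts per library, and those that shared none or part had at least 60 counts in every library. mt-Atp8 is the exception, with 0 of 130 stretches in an annotated copy and 0 counts. mt-Atp8 overlaps mt-Atp6 by 43 bases, and the rest of it lies between mt-Co2 and mt-Atp6, as does mt-Tk. That interval is 230 bases in the mitochondrial chromosome. It corresponds to a gap of 233 bases between the copies Gm28661 and Gm10925, which no transcript of the annotation covers.

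**Figure D5:**
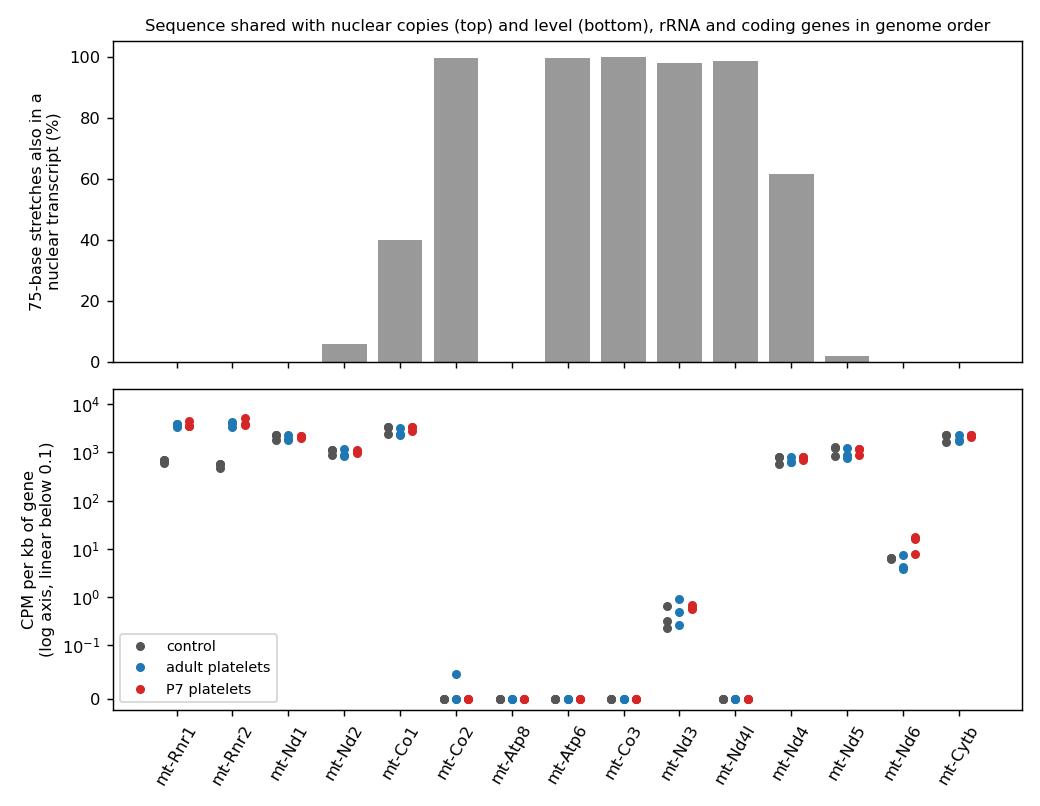
Percent of 75-base stretches of each rRNA and coding gene that also occur in a nuclear transcript (top), and CPM per kb of gene in each of 9 libraries (bottom, log axis, linear below 0.1), genes in mitochondrial order. The 5 genes with over 97% shared stretches and mt-Atp8 stand at or near 0 in all groups.

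A block of 7 copies stands on chromosome 1, minus strand (chr1:24611535-24616197, GRCm38), 4663 bases long, in the order of the mitochondrial genes. The copy Gm28661 matches mt-Co2 over 681 bases, Gm10925 matches mt-Atp6 over 678, Gm28437 matches mt-Co3 over 783, Gm10222 matches mt-Nd4l over 294 and Gm28439 matches mt-Nd4 over 876, each without a difference. The first 75 bases of mt-Co3 (chrM:8607-8681, plus strand) and of its copy Gm28437 (chr1:24613897-24613971, minus strand) show a read that fits both places equally.
mt-Co3: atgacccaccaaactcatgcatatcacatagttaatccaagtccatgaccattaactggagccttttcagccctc
Gm28437: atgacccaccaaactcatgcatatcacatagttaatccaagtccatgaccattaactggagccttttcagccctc
mt-Nd3 and its copy Gm28438 differ at 1 of 345 aligned bases, T3C counted from the first base of mt-Nd3, in capitals below (chrM:9459-9481, plus strand, and chr1:24613097-24613119, minus strand).
mt-Nd3: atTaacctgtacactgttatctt
Gm28438: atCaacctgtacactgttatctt
Inside the aligned bases, a read can be told apart only where it covers this base. mt-Nd3 is the member of the 5 with the most counts, but where its reads lie was not examined. The copies themselves had few counts: of 12 copies that share a stretch with a member, the highest count in any library was 19. Of 11 listed nuclear copies 3 had enough counts to be tested, and 0 were called in any comparison. How reads with several equal places were counted is not given in the sources used here, and its part in the low counts was not tested. The low counts of these 5 genes and of mt-Atp8 do not show that the RNAs were absent. Per 1000 unshared stretches, the control means were 5296 CPM for mt-Co1 and 1983 CPM for mt-Nd4, against 2298 CPM for mt-Nd1 and 2209 CPM for mt-Cytb. If reads of shared stretches were not counted, which is not known, this moves mt-Nd4 from the last of the 6 to the fourth place.

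Nuclear genes that serve these transcripts moved in both directions. Of 19 genes of mitochondrial DNA replication and transcription, 1 was called higher and 2 lower with adult platelets (median log2 fold change -0.014), 4 higher and 7 lower with P7 platelets (-0.22), and 0 higher and 5 lower between P7 and adult platelets (-0.12). The genes called, 3, 11 and 5 of 19, compare with 26.4, 59.2 and 39.6% of all genes tested, so their number is no more than the background gives in the first and last comparison and near it in the other. Polg2, the accessory subunit of the mitochondrial DNA polymerase, stood at 7.45, 7.82 and 6.64 CPM in control, 3.23, 3.40 and 3.65 CPM with adult platelets, and 2.05, 1.31 and 1.50 CPM with P7 platelets. The 3 groups did not overlap, and Polg2 fell by 1.03 ± 0.15 on the log2 scale with adult platelets (edgeR adjusted p = 0.00156) and by 1.89 ± 0.16 with P7 platelets (edgeR adjusted p = 1.29e-05). Twnk, the replicative helicase, fell with P7 platelets by 0.83 ± 0.09 (edgeR adjusted p = 6.03e-05), and with adult platelets by 0.29 ± 0.09 (0.0430), a call lost in 9 of 20 other settings, among them leaving out any control library, adult replicate 2 or 3, or P7 replicate 2 or 3 (adjusted p up to 0.126). Dna2, a nuclease and helicase shared with the nucleus, fell with P7 platelets by 0.51 ± 0.06 (edgeR adjusted p = 8.78e-05) and had -0.02 ± 0.06 with adult platelets. Ssbp1, which coats single-stranded mitochondrial DNA, rose with P7 platelets by 0.42 ± 0.07 (edgeR adjusted p = 0.000948). Its call with adult platelets (0.23 ± 0.07, adjusted p = 0.0494) was lost in 14 of 20 other settings, among them leaving out any library but adult replicate 3 and P7 replicate 1 (adjusted p up to 0.163).

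Polrmt and Tfam, which start transcription, were named whatever their values. Polrmt, the mitochondrial RNA polymerase, stood at 38.2, 35.4 and 32.5 CPM in control, 33.5, 27.9 and 34.4 CPM with adult platelets, and 25.9, 24.8 and 24.6 CPM with P7 platelets. It had -0.09 ± 0.08 with adult platelets (edgeR adjusted p = 0.439) and fell by 0.22 ± 0.08 with P7 platelets (0.0323), a call lost without control replicate 1 or 2 or any one P7 library (adjusted p up to 0.110). Tfam, which packs mitochondrial DNA and starts its transcription, had 0.07 ± 0.07 with adult platelets (edgeR adjusted p = 0.460) and rose by 0.25 ± 0.07 with P7 platelets (0.0116), a rise that was -0.031 on library totals and was not called without P7 replicate 3 (adjusted p = 0.0510).

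Of 30 genes of mitochondrial RNA processing, modification, stability and decay, 4 were called higher and 3 lower with adult platelets (median -0.024), 11 higher and 5 lower with P7 platelets (0.081), and 8 higher and 5 lower between P7 and adult platelets (0.050). These 7, 16 and 13 of 30 are near the shares of all genes called, 26.4, 59.2 and 39.6%. Pus1, which makes pseudouridine in tRNAs, rose by 0.30 ± 0.05 with adult platelets (edgeR adjusted p = 0.00324) and by 0.66 ± 0.05 with P7 platelets (8.43e-06). Fastkd2, a mitochondrial RNA-binding protein that binds the large-subunit rRNA, rose by 0.34 ± 0.07 (edgeR adjusted p = 0.00909) and 0.74 ± 0.07 (3.01e-05). Tbrg4, of the same family, rose by 0.24 ± 0.05 with adult platelets (edgeR adjusted p = 0.00811). Rbfa, a factor that binds the small-subunit rRNA during ribosome assembly, moved against these, falling from 47.5, 43.6 and 37.3 CPM in control to 31.6, 25.6 and 27.2 CPM with adult platelets and 17.5, 15.7 and 15.8 CPM with P7 platelets. It fell by 0.54 ± 0.09 (edgeR adjusted p = 0.00353) and by 1.11 ± 0.10 (1.50e-05) on the log2 scale, with no overlap between the 3 groups.

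Among genes of RNA decay, Pnpt1 and Pde12 rose between P7 and adult platelets. Pnpt1, the polynucleotide phosphorylase of the mitochondrial degradosome, which also removes antisense RNA, stood at 45.7, 42.2 and 40.0 CPM in control, 40.7, 41.5 and 37.9 CPM with adult platelets, and 49.3, 50.8 and 54.5 CPM with P7 platelets. It rose by 0.58 ± 0.07 between P7 and adult platelets (edgeR adjusted p = 0.000293). Pde12, which removes poly(A) tails from mitochondrial RNA, rose by 0.62 ± 0.11 in that comparison (edgeR adjusted p = 0.00180). Lrpprc and Slirp, partners that bind and stabilise mitochondrial mRNA, differed in their calls. Lrpprc had -0.11 ± 0.05 with adult platelets (edgeR adjusted p = 0.145) and -0.13 ± 0.05 with P7 platelets (0.0598), and the latter was called in 5 of 20 other settings, among them leaving out adult replicate 1 or P7 replicate 1 (adjusted p down to 0.000156 on library totals). Slirp rose by 0.62 ± 0.09 with P7 platelets (edgeR adjusted p = 0.000421). With adult platelets Slirp was called at 0.32 ± 0.09 (edgeR adjusted p = 0.0352), a call lost in 5 of 20 other settings, among them leaving out control replicate 2 or 3 or adult replicate 1 (adjusted p up to 0.125).

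Nuclear-encoded partners of the mitochondrial subunits rose more often than they fell on the TMM scale. Of 20 core or catalytic partners, 4 were called higher and 0 lower with adult platelets (median 0.083), 11 higher and 1 lower with P7 platelets (0.20), and 4 higher and 1 lower between P7 and adult platelets (0.034). The genes called, 4, 12 and 5 of 20, are near or under the shares of all genes, 26.4, 59.2 and 39.6%. By direction, 14.3, 29.9 and 19.7% of all genes were called higher and 12.0, 29.3 and 19.8% lower. Cox5a, a partner of mt-Co1 in complex IV, rose from 72.2, 67.9 and 64.3 CPM in control to 104, 84.5 and 100.0 CPM with adult platelets (0.56 ± 0.07, edgeR adjusted p = 0.000867). With P7 platelets Cox5a stood at 74.1, 66.4 and 66.6 CPM, overlapping control on library totals, and on the TMM scale it was called higher than control (0.30 ± 0.07, edgeR adjusted p = 0.00712). It was the 1 partner called lower between P7 and adult platelets (-0.26 ± 0.07, edgeR adjusted p = 0.0195). That call was lost without adult replicate 1 or 3 or P7 replicate 2 or 3 (adjusted p up to 0.0764). Atp5b, the catalytic subunit of ATP synthase, and Cyc1, cytochrome c1 of complex III, rose by 0.36 ± 0.05 and 0.37 ± 0.05 with P7 platelets (edgeR adjusted p = 0.000175 and 0.000285). Ndufs1, the largest subunit of complex I, rose by 0.26 ± 0.04 (edgeR adjusted p = 0.000805). On library totals the split for P7 against control was 0 higher and 8 lower, with Ndufs1 at -0.021, against 24.3% of all calls being higher on that scale and 50.5% on the TMM scale. The processing list then stood at 6 higher and 17 lower and the replication list at 1 higher and 9 lower. Between P7 and adult platelets the partners stood at 0 higher and 10 lower on library totals and 1 higher and 3 lower with upper-quartile factors, the processing list at 3 higher and 15 lower on library totals, and 19.3% of all calls were higher on that scale, against 49.9% on the TMM scale. With upper-quartile factors the split for P7 against control was 5 higher and 3 lower for the partners. It was 8 higher and 10 lower for the processing list. Of all calls with those factors, 39.5% were higher for P7 against control and 37.2% for P7 against adult platelets.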

How the data were processed

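The values the authors deposited are raw counts of reads per gene symbol in 9 libraries, not normalised. Tools named in the submitters' processing notes, without their roles, are Salmon 1.3.0, STAR 2.7.6a, fastp 0.20.1, featureCounts and Subread 2.0.1. Not given in the sources used here are the build, the annotation, the strand setting and the handling of reads with several places. The counts were fitted in R 4.3.3 with edgeR 4.0.16 (TMM, filterByExpr with a minimum count of 10, 1 mean per group, all 9 libraries, 6 residual degrees of freedom), which tested 13707 genes. TMM factors ranged from 0.882 to 1.10. Two-sided p-values were adjusted by Benjamini-Hochberg over all genes tested. Class sums are CPM of the library total, described without a test. Since reads carry no molecular identifiers, a floor of 3 counts covers counting error only. Positions and sequences come from GENCODE M21 (GRCm38), in which 53292 symbols were matched.

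All 37 members are accounted for: rRNAs and coding genes by name, tRNAs by name from a mean of 1 CPM. Up to 3 called genes of each pathway list by smallest p are named, with Polrmt, Tfam, Lrpprc and Slirp. The identity of 1 called gene of the partner list is not reported here. The members and lists were chosen with earlier results of these data known. Replicates sharing a number deviated together between control and P7 libraries (correlations 0.209 to 0.576), so the replicate block is given beside that comparison. That number is the only source of the pairing, and it cannot be told apart from the Igkc class: control replicate 2 correlated at 0.307 with P7 replicate 3 and control replicate 3 at 0.205 with P7 replicate 2, which share that class. Alternatives were other scalings, no filter and a stricter one, the Wald test of DESeq2 1.42.0, limma-voom (limma 3.58.1), the block, only the groups compared, other denominators and leaving out each library. The fit was also run on simulated counts with the same spread for every gene and no replicate or Igkc structure. That run does not bear on calls that change with those terms. Chosen after seeing the data were the Igkc term and values without high-Igkc libraries.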

Additional observations from a re-analysis of the deposited data

How the results depend on the processing

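In the comparison of adult platelets with control 2 members were called under every alternative run, the rRNAs. Over all genes tested, the number called there ranged from 2031 of 13935 without control replicate 2 to 4228 of 13707 with the replicate block. Members called in P7 against control came to 3, and to 5 without a filter and 6 with the DESeq2 Wald test. They were 9 with the replicate block, 10 with the Igkc term, and 3 to 7 leaving out 1 library. Of all genes, 8111 of 13707 were called there, and 7930 of 26245 without a filter. Of 13707, 7885 were called with DESeq2, 8565 with the block and 8692 with the Igkc term. Leaving out 1 library gave 7101 of 13935 (control replicate 2) to 8482 of 13998 (adult replicate 1). Members called between P7 and adult platelets came to 1, and to 3 without a filter and 8 with DESeq2. They were 7 with the replicate block, 8 with the Igkc term, and 1 to 7 leaving out 1 library. Of all genes, 5424 of 13707 were called there, and 4921 of 26245 without a filter. Of 13707, 5335 were called with DESeq2, 5965 with the block and 5579 with the Igkc term. Leaving out 1 library gave 3978 of 13948 (P7 replicate 3) to 5540 of 13980 (adult replicate 2). For adult platelet replicates 1 to 3, same-numbered deviations correlated at 0.557, 0.346 and -0.077 with control and at 0.486, 0.281 and -0.081 with P7 libraries. Adult replicate 3 is a high-Igkc library, while control and P7 replicate 3 are not. The causes were not tested.

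Class sums moved as follows, as log2 ratios of group means. With library totals multiplied by TMM factors, rRNA came to 3.07 (from 2.80) for P7 against control and 0.32 (from 0.10) for P7 against adult platelets, tRNA to 0.44 (from 0.17) and 0.59 (from 0.38), and coding to 0.31 (from 0.035) and 0.40 (from 0.19). Without high-Igkc libraries, rRNA came to 2.45 (from 2.70) for adult platelets and 2.58 (from 2.80) for P7 platelets against control, and the ratio of rRNA to coding to 2.47 (from 2.88) for adult platelets. Only 1 adult platelet library is left in that set, so both adult values rest on it.

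Reversed signs were mostly those of uncalled differences. The exceptions were Ndufs1 and Tfam for P7 against control and Uqcrfs1 for P7 against adult platelets, which were called and reversed on library totals. For adult platelets against control, leaving out 1 library gave mt-Nd1 -0.15 to 0.059, mt-Ti -0.57 to 0.20, mt-Tm -0.24 to 0.57, mt-Nd2 -0.23 to 0.017, mt-Tw -0.16 to 0.0014, mt-Nd4 -0.17 to 0.071 and mt-Cytb -0.19 to 0.066. The Igkc term gave mt-Nd1 0.075, mt-Ti 0.22, mt-Nd2 0.049, mt-Co1 0.0089, mt-Nd4 0.12, mt-Nd5 0.012 and mt-Cytb 0.11. For P7 against control, mt-Tt had -0.062 with upper-quartile factors, -0.23 on library totals, -0.097 with voom, -0.024 with the replicate block, -0.062 with the Igkc term and -0.57 to 0.27 leaving out 1 library, and -0.17 to 0.81 for P7 against adult platelets. On library totals, mt-Nd5 (-0.053), Ndufs1 (-0.021) and Tfam (-0.031) reversed for P7 against control, and Tfam (-0.041) and Uqcrfs1 (-0.029) for P7 against adult platelets. Lrpprc had -0.060 to 0.024 in that comparison leaving out 1 library. Values of single genes and the called counts of the pathway lists were then tallied together. Of these, 44 reversed, all of them single genes. A further 124 lost a call or, for a list, had a markedly lower count. In 84 a call was gained or a list count was markedly higher, and 1698 did neither.

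Depth limits the tRNAs and mt-Nd6, with 97 to 161 and 60 to 297 counts per library. The share of sequence in nuclear copies stands beside the low counts of mt-Co2, mt-Atp6, mt-Co3, mt-Nd3 and mt-Nd4l, and its part in them was not tested.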
